A study of Mus musculus with 10 samples.

Results

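miR-26a and miR-26b are the members of the miR-26 family on a NanoString nCounter panel run on mouse B cell progenitors. They were chosen by name, as the rows mmu-miR-26a and mmu-miR-26b of the raw count table, and are 2 of its 566 mouse miRNA probes. They were also selected on measured values, since their counts in all 10 libraries and the genotype difference of miR-26b were known when they were picked. Their levels, their ratio and their genotype differences are therefore a description without a test. The tested samples were 5 cultures with both copies of the Bim 3'UTR mutated (Bim3’UTRmut/mut, mutant libraries 6 to 10), and they were set against 5 wild type cultures (libraries 1 to 5). Bim is a protein of the BH3-only class that promotes apoptosis. All 10 cultures were C57BL/6 fetal liver cells of stage E14.5, transformed with a retrovirus carrying the Abelson kinase v-Abl, which sustains the growth of early B-lineage cells in vitro. The labels do not say which bases of the 3'UTR were changed, whether the cultures are clones or whether they came from separate embryos, so the spread between libraries may be partly technical.

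miRNAs of the miR-26 family pair with target mRNAs through bases 2 to 8 of their 5′ end, the seed, and lower the output of those mRNAs. The family is carried in genes of the small CTD phosphatases (Ctdsp), enzymes that act on the C-terminal domain of RNA polymerase II, and miRNA and host mRNA are made from one transcript. miR-26a is known as a repressor of Ezh2, the histone methyltransferase of the Polycomb complex, and is itself repressed by Myc in B cell lymphoma.

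In the RefSeq annotation of mouse build GRCm38.p6, miR-26a is encoded at 2 loci and miR-26b at 1. Mir26a-1 lies inside the gene Ctdspl, with its mature 5′ arm at chr9:119031811-119031832 on the plus strand. Mir26a-2 lies inside Ctdsp2, with the same mature arm at chr10:126995543-126995564 on the plus strand, and a count of miR-26a cannot be assigned to either locus. Mir26b lies inside Ctdsp1, with its mature 5′ arm at chr1:74394324-74394344 on the plus strand. The mature sequences from RefSeq are shown because the 2 probes must tell apart nearly identical targets, with the seed in capitals:
miR-26a: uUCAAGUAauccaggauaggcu
miR-26b: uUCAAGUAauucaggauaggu
The seeds are identical. Over the 21 bases that both share in length, 19 are the same, and the differences are C11U and C21U, counted from 1 at the 5′ end with the miR-26a base first. miR-26a also has 1 base more at its 3′ end, at 22 against 21 bases. Of 1679 mature mouse miRNA names in the RefSeq table, these 2 are the ones that hold the seed UCAAGUA, so the probes cover the whole seed family there. No probe on the panel carries the name of a 3′ arm of these hairpins. The deposited tables hold no probe sequences, so binding of one miRNA to the probe of the other was not tested.

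Each library held 356141 to 470493 counts over all probes, of which 240469 to 354826 were mouse miRNA counts. The column headers number wild type libraries 1 to 5 and mutant libraries 6 to 10 within a single cartridge identifier, so position and genotype cannot be told apart. Mutant libraries 9 and 10 stood apart from the other mutant libraries. Across the log2 counts of 116 miRNAs their pairs with any mutant library had Pearson r of 0.839 to 0.935, against 0.966 to 0.986 among mutant libraries 6, 7 and 8. Pairs of wild type libraries had r of 0.919 to 0.993, a range that overlaps both. The miRNAs are not independent replicates. All 6 probes of a B-lymphoid and pan-haematopoietic list were measured above background in at least 5 libraries. None of 14 probes for erythroid, myeloid, endothelial, hepatocyte, muscle, neural and mesenchymal cells was. Of their 140 values 5 exceeded background, and their summed counts were 530 to 918 in mutant and 650 to 757 in wild type libraries. As the RNA is from whole cultures, a lower level in each cell and fewer cells with the miRNA cannot be told apart.

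miR-26b was the more highly counted member in every library, and its raw counts were higher in all 5 mutant libraries than in any wild type library. It counted 275, 318, 255, 383 and 325 in mutant libraries 6, 7, 8, 9 and 10, against 215, 200, 229, 207 and 222 in wild type libraries 1, 2, 3, 4 and 5. The highest count was in mutant 9 and the lowest in wild type 2, and the wild type counts lay close together. The mean was 311.2 ± 49.7 in mutant and 214.6 ± 11.5 in wild type libraries (SD, n = 5 each). In raw counts 7 of the 116 miRNAs measured above background (6.03%) were higher in every mutant library than in every wild type library, and the mutant libraries included those with the highest miRNA totals.

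miR-26a was counted close to background. It counted 122, 165, 114, 130 and 127 in mutant libraries 6 to 10, against 114, 122, 124, 111 and 120 in wild type libraries 1 to 5. Mutant 7 was the highest, and the groups overlapped. The mean was 131.6 ± 19.6 in mutant and 118.2 ± 5.50 in wild type libraries (SD, n = 5 each). Detection in a library required a count over the mean plus 2 SD of its 8 negative control probes, a threshold of 95.3 to 127.0 in mutant and 90.5 to 122.0 in wild type libraries. miR-26b passed it in all 10 libraries and miR-26a in 9, missing it in wild type 1, where 114 counts stood below a threshold of 122.0.

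The margin of miR-26a over the controls was small even where it passed. Its count was 1.07 to 1.30 times the threshold in mutant libraries and 0.935 to 1.23 times in wild type libraries. miR-26b stood at 2.40 to 3.57 times the threshold in mutant and 1.76 to 2.29 times in wild type libraries. Probes for viral miRNAs, which these cells should lack, gave a second measure of background. miR-26a exceeded the highest of 33 viral probes in all 10 libraries, by 31 to 63 counts in mutant and 19 to 36 in wild type libraries. It exceeded the highest negative control in 9 libraries, and in mutant 8 its 114 counts lay below a negative control at 116.

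**Figure D1:**
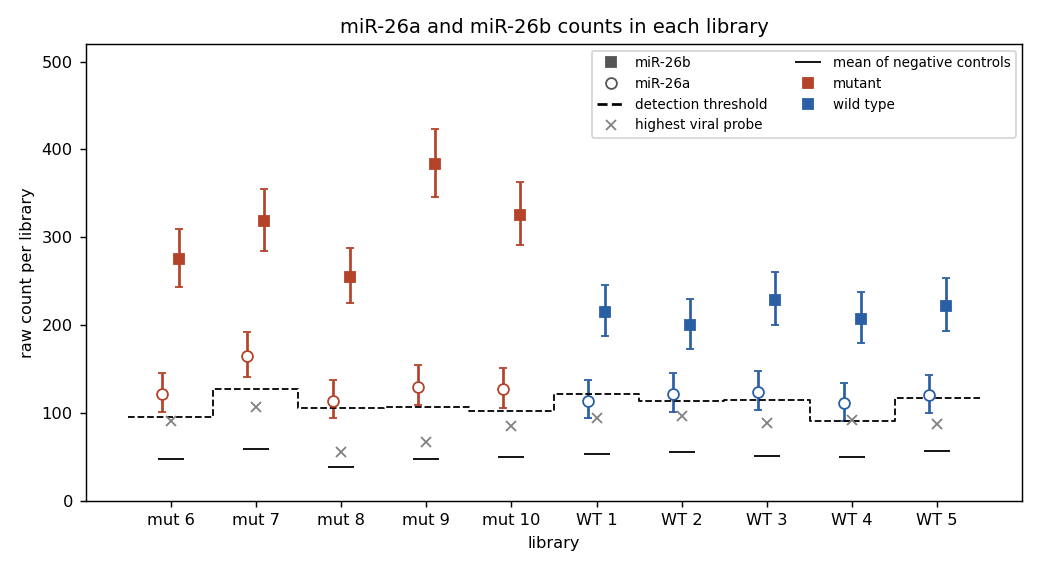
Raw counts (vertical axis) of miR-26b (filled squares) and miR-26a (open circles) in each library, mutant on the left in red and wild type on the right in blue, with exact Poisson 95% intervals that cover counting error only. The dashed line is the detection threshold, crosses are the highest viral probe and short bars the mean of the negative controls. miR-26b lies above the threshold throughout, at 255 to 383 counts in mutant and 200 to 229 in wild type libraries, and miR-26a lies near it, at 114 to 165 and 111 to 124.

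By raw count both members ranked well below the most highly counted probes, and since probes have no common calibration these ranks and shares are of counts and not of molecules. miR-26b ranked 57th to 72nd by raw count of the 566 mouse probes in mutant libraries and 73rd to 80th in wild type libraries. It took 0.106% ± 0.0135 of mouse miRNA counts in mutant and 0.0845% ± 0.00463 in wild type libraries (SD, n = 5 each). miR-26a ranked 87th to 114th in mutant and 101st to 114th in wild type libraries, and took 0.0456% ± 0.0116 and 0.0466% ± 0.00227. Together the family summed to 442.8 ± 59.5 counts in mutant and 332.8 ± 14.52 in wild type libraries.

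Counting error was larger than the spread of raw counts between the wild type libraries. The square root of the count is 7.78% to 9.37% of the miR-26a count in mutant and 8.98% to 9.49% in wild type libraries, and 5.11% to 6.26% and 6.61% to 7.07% of the miR-26b count. The wild type libraries had a coefficient of variation of 4.65% for miR-26a and 5.38% for miR-26b. The mutant libraries varied by more, at 14.9% for miR-26a and 16.0% for miR-26b. The variance of the raw counts was 2.93 times the mean for miR-26a and 7.92 times for miR-26b in mutant libraries, against 0.255 and 0.621 times in wild type libraries. Mouse miRNA totals also ranged more widely in mutant (251192 to 354826) than in wild type libraries (240469 to 266022). After the scaling described next, the coefficient of variation of miR-26b was 10.3% in mutant and 7.11% in wild type libraries. That of miR-26a was 18.3% and 5.51%.

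To compare genotypes relative to the other miRNAs, counts of the 116 miRNAs detected in at least 5 libraries were scaled by the trimmed mean of M-values (TMM). After scaling, miR-26b had 295.2, 311.4, 240.3, 312.1 and 304.5 normalised counts in mutant libraries 6 to 10, against 218.0, 207.9, 239.2, 232.0 and 248.5 in wild type libraries 1 to 5. Of the mutant libraries, 4 of 5 lay above every wild type library, and mutant 8 lay within the wild type range. The mean was 292.7 ± 30.1 in mutant and 229.1 ± 16.3 in wild type libraries (SD, n = 5 each). The fitted log2 fold change of miR-26b in edgeR, mutant over wild type, was 0.35 (SE 0.10, approximate 95% interval 0.11 to 0.60).

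miR-26a had nearly the same mean in both genotypes on this scale. It had 130.9, 161.6, 107.4, 105.9 and 119.0 normalised counts in mutant libraries 6 to 10, against 115.6, 126.8, 129.5, 124.4 and 134.3 in wild type libraries 1 to 5. Mutant 7 lay above every wild type library and mutant 8 and 9 below, so the mutant libraries bracketed the wild type ones. The mean was 125.0 ± 22.8 in mutant and 126.1 ± 6.95 in wild type libraries (SD, n = 5 each), with a fitted log2 fold change of -0.01 (SE 0.12, approximate 95% interval -0.28 to 0.26). The value depended on single libraries within that interval, from -0.12 without mutant 7 to 0.09 without mutant 9, while that of miR-26b ran from 0.32 without wild type 2 to 0.42 without mutant 8.

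**Figure D2:**
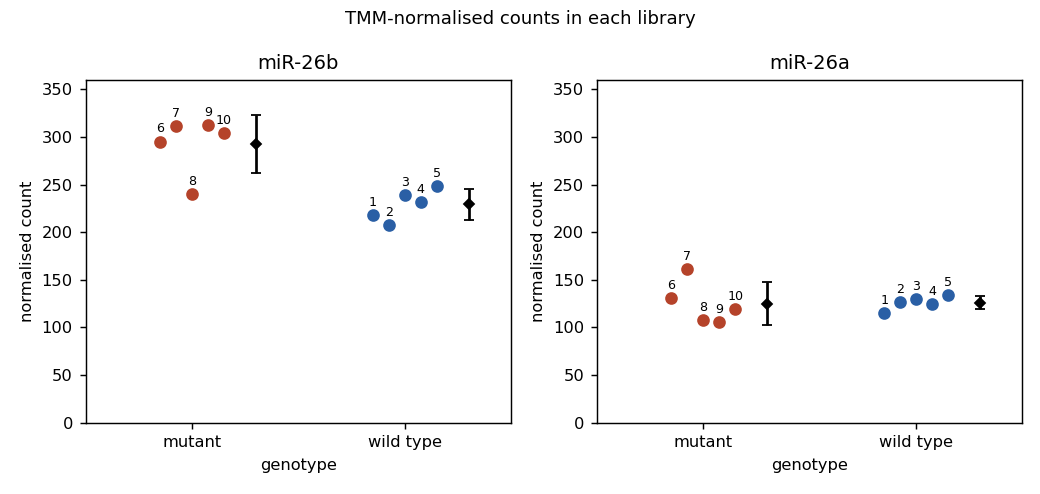
TMM-normalised counts (vertical axis) of miR-26b on the left and miR-26a on the right in mutant (red) and wild type (blue) libraries, each point a library with its number, with the mean and SD in black (n = 5 each). For miR-26b, 4 mutant points lie above all wild type points and mutant 8 at 240.3 does not, and for miR-26a the mutant points spread to both sides of the wild type points.

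In edgeR's quasi-likelihood test over the 116 miRNAs, 0 of the 2 members and 0 miRNAs in all (0%) passed a Benjamini-Hochberg adjusted p of 0.05, with 11 at an unadjusted p under 0.05. limma with voom weights also called 0 (0%), with 11 at an unadjusted p under 0.05. The DESeq2 Wald test called 5 of 115 miRNAs (4.35%), of which 3 were higher in mutant libraries (2.61%), and miR-26b was among those 3. Since the members were picked with this contrast known, nothing is read from these calls. On the normalised scale, 3 of the 116 miRNAs (2.59%) did not overlap between genotypes, 2 of them with the mutant libraries higher (1.72%), and neither member was among them.

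The size of the miR-26b difference moved with the scaling. The log2 fold change was 0.57 for miR-26b and 0.19 for miR-26a when libraries were scaled to the positive controls, spiked RNAs that track the assay. It was 0.85 for miR-26b and 0.44 for miR-26a when they were scaled to the mRNAs of Actb, B2m, Gapdh and Rpl19. These mRNAs did not vary alike. Their coefficient of variation in mutant libraries was 59.0% for Gapdh, 54.4% for B2m, 32.1% for Actb and 9.83% for Rpl19. In wild type libraries it was 15.3%, 14.1%, 21.5% and 8.51%. Gapdh counted 1187, 1089, 966, 244 and 309 in mutant libraries 6 to 10, against 625 to 901 in wild type libraries. B2m counted 1592, 1584, 1490, 4029 and 4195 in mutant libraries 6 to 10, against 3250 to 4561 in wild type libraries. The median of all 116 miRNAs moved with them and stood at 0.20 and 0.46, against -0.00 under TMM. Relative to that median, miR-26b stood 0.36 higher under TMM, 0.37 under positive control scaling and 0.39 under mRNA scaling, and miR-26a stood at -0.01, -0.02 and -0.02.

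**Figure D3:**
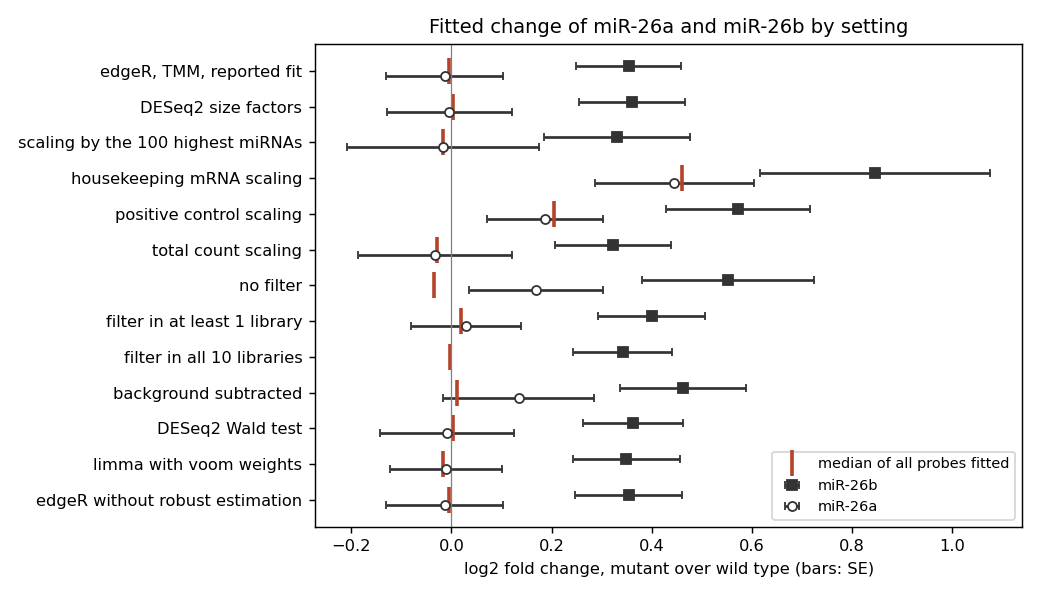
Fitted log2 fold change, mutant over wild type (horizontal axis, bars show the SE), of miR-26b (filled squares) and miR-26a (open circles) in the reported fit and under each other scaling, filter, background treatment or test (fits that leave out libraries are not drawn), with the median of all probes fitted as a red tick. In the settings drawn, miR-26b lies above the median, at log2 fold changes of 0.32 to 0.85. miR-26a lies farthest from the median with no filter (0.17, median -0.04) and after background subtraction (0.13, median 0.01).

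Since both members are counted in the same library, their ratio needs no scaling. The 2 probes have no common calibration, so the ratio shows shifts between libraries and not the molar proportion. The ratio of miR-26a to miR-26b was 0.444, 0.519, 0.447, 0.339 and 0.391 in mutant libraries 6 to 10, against 0.530, 0.610, 0.541, 0.536 and 0.541 in wild type libraries 1 to 5. Every mutant value was below every wild type value, but the closest pair, mutant 7 and wild type 1, differed by little. The mean ratio was 0.428 ± 0.0673 in mutant and 0.552 ± 0.0329 in wild type libraries (SD, n = 5 each), and the log2 ratio was lower in mutant libraries, by a difference of -0.38. Of the ratios of miR-26a to each of the 115 other miRNAs, 1 (0.87%) did not overlap between genotypes, and it was this one. Of the ratios of miR-26b to the 115 others, 16 (13.9%) did not overlap with the mutant libraries higher.

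Counting error in the ratio was set beside its differences between libraries. miR-26a made up 30.7%, 34.2%, 30.9%, 25.3% and 28.1% of the summed counts of the pair in mutant libraries 6 to 10. It made up 34.7%, 37.9%, 35.1%, 34.9% and 35.1% in wild type libraries 1 to 5. The exact Clopper-Pearson 95% interval, which covers counting error only, was 21.6% to 29.3% for mutant 9, the lowest, and 32.6% to 43.4% for wild type 2, the highest. For mutant 7 it was 29.9% to 38.6%, which includes the shares of all 5 wild type libraries. The intervals of mutant 6 (26.2% to 35.5%) and mutant 8 (26.2% to 35.9%) include some of those shares but not that of wild type 2. The intervals of mutant 9 and of mutant 10 (24.0% to 32.5%) lie below all 5 wild type shares. Those shares carry counting error too, with intervals that begin at 29.5%, 32.6%, 30.1%, 29.7% and 30.0% in wild type libraries 1 to 5. The interval of mutant 9 lies below all of these, and that of mutant 10 overlaps the intervals of wild type 1, 3, 4 and 5.

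The separation of the ratio was lost when background was subtracted. The mean of the negative controls was 48.1, 58.5, 38.9, 47.8 and 49.6 counts in mutant libraries 6 to 10, and 53.6, 55.0, 51.4, 49.6 and 56.9 in wild type libraries 1 to 5. Mutant 7, with the highest count of miR-26a, also had the highest control mean, and the part of this in its count was not tested. After it was subtracted, the ratio of miR-26a to miR-26b was 0.326, 0.410, 0.348, 0.245 and 0.281 in mutant and 0.374, 0.462, 0.409, 0.390 and 0.382 in wild type libraries, so that mutant 7 lay within the wild type range. The mean difference in the log2 ratio was then -0.34. Mutant libraries 9 and 10, which had the lowest ratios, were left out together after the data were seen. The difference on raw counts was then -0.23. Leaving out libraries cannot make separate groups overlap, so nothing is read from their separation in that setting.

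**Figure D4:**
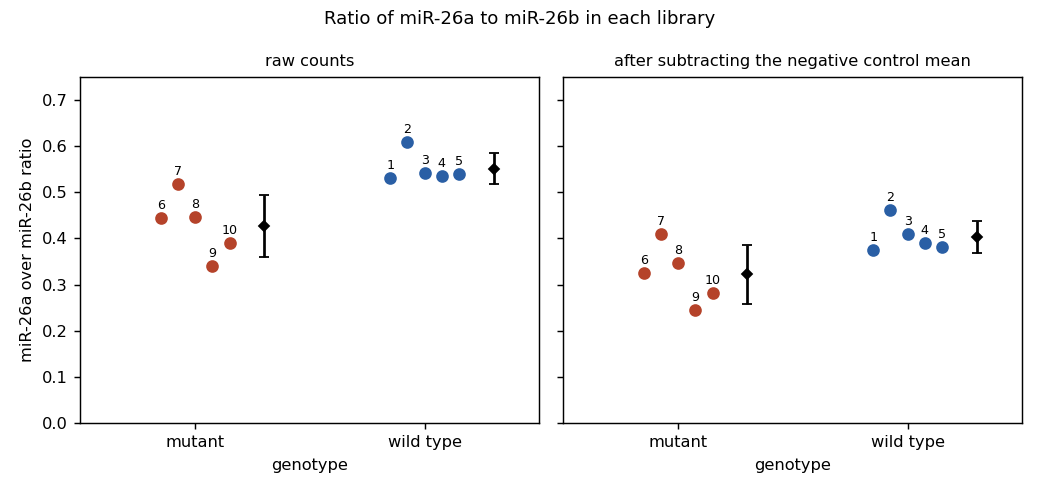
Ratio of miR-26a to miR-26b (vertical axis) in mutant (red) and wild type (blue) libraries, from raw counts on the left and after subtracting the mean of the negative controls on the right, each point a library with its number and the mean and SD in black (n = 5 each). On the left the highest mutant value is 0.519 and the lowest wild type value 0.530, and on the right these are 0.410 and 0.374.

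The log2 ratio of the pair was more spread within mutant than within wild type libraries, and pooling the genotypes added little to the mutant spread. In raw counts of wild type libraries, counting error exceeded the spread of each member. The small spread of the ratio there is therefore not read as a kept proportion. Within mutant libraries the log2 ratio of miR-26a to miR-26b had an SD of 0.23, and within wild type libraries 0.08. From the smallest SD, these ranked miR-26b 16th and 11th of the 115 miRNAs set against miR-26a, and miR-26a 20th and 8th of the 115 set against miR-26b. Over all 10 libraries, which includes the difference between genotypes, the SD was 0.26, and the ranks were 35th against miR-26a, where the median SD was 0.32, and 20th against miR-26b, where it was 0.36. Without mutant libraries 9 and 10 the SD over the remaining libraries was 0.15. The miRNAs miR-103 and miR-107, another pair of paralogs that lie in introns of paralogous genes (Pank), give a comparison. Their ratio was 5.06, 4.45, 4.47, 7.43 and 4.88 in mutant libraries 6 to 10 and 4.16, 4.88, 4.80, 4.55 and 4.20 in wild type libraries 1 to 5. There mutant 9, at 7.43, was farthest from the wild type values, and the groups overlapped. The other mutant libraries, at 4.45 to 5.06, did not range more widely than the wild type libraries, at 4.16 to 4.88. miR-107 was counted near background as well, at 94 to 174 in mutant and 121 to 147 in wild type libraries.

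The patterns of the members over the 10 libraries resembled different miRNAs. As a measure of likeness, Pearson's r of log2 normalised counts was taken against the other 115 miRNAs. These values share their libraries and scaling factors, and they are given as a description. miR-26b was most like miR-25 (r = 0.77), a member of the miR-106b~25 cluster inside Mcm7, then miR-425 (0.76), which lies in Dalrd3, miR-374 (0.74), miR-1944 (0.71) and miR-30c (0.69). All 5 were above background in all 10 libraries, with median raw counts of 594 to 8038. The median r of miR-26b against all 115 was -0.04.

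miR-26a was most like miR-1960 (r = 0.74), followed by miR-185 (0.61), miR-1186 (0.59), miR-19a of the miR-17~92 cluster (0.55) and miR-1900 (0.54). The nearest of these, miR-1960 and miR-185, had median counts of 122 and 136.5 and were above background in 8 and 9 libraries. The mean of the negative controls, scaled by the same factors, had an r of 0.74 with miR-26a and -0.31 with miR-26b. Between miR-26a and miR-26b r was 0.18, and miR-26b ranked 38th of 115 for miR-26a. The part of background in this low likeness was not tested.

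Among other miRNAs that share a feature with the family, none passed the edgeR test between genotypes. The test called 0 of all 116 miRNAs (0%), so the counts of 0 for these lists are not particular to them. Of 32 other miRNAs hosted in genes, 23 were above background in at least 5 libraries, and 0 were called in either direction. Of these 23, 14 had a log2 fold change above 0, with a median of 0.02, and 58 of all 116 miRNAs did, with a median of -0.00. Their members with the highest mean normalised counts were miR-16 (0.13), miR-15b (0.05), miR-25 (0.27) and miR-106b (0.32), all given as log2 fold change, mutant over wild type. Of 20 other miRNAs repressed by Myc, 18 were kept and 0 passed in either direction, with 12 above 0 and a median of 0.10. These 18 ran from -0.42 to 2.10. Those with the highest mean normalised counts were miR-16, let-7g (0.07), let-7d (-0.05) and miR-15a (-0.06).

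Of 6 probes for miRNAs of the Myc-induced miR-17~92 cluster, 5 were kept, 0 passed and the median was -0.01. The probe for both miR-20a and miR-20b stood at 0.01, the probe for both miR-106a and miR-17 at 0.02, miR-19a at -0.06 and miR-19b at -0.01. Of 5 other miRNAs reported to target Ezh2, miR-101b alone was kept. It had 203.6 ± 21.6 normalised counts in mutant and 203.5 ± 20.2 in wild type libraries (SD, n = 5 each). Its log2 fold change was 0.00 (SE 0.11). Among the 6 B-lymphoid and pan-haematopoietic probes, 0 passed and the median was 0.07, with miR-142-3p at -0.16, miR-181a at 0.54 (SE 0.31), miR-150 at 0.03 (SE 0.64) and miR-142-5p at -0.19.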

How the data were processed

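RNA from 5 Bim3’UTRmut/mut and 5 wild type cultures was measured with an input of 100 ng on the nCounter, per the labels' protocols, and groups were taken from the sample titles. The authors deposited raw counts, whole numbers for each of 626 probes, in 2 tables whose 6260 values are equal. No sign of normalisation was seen in them, and no other step is given in the sources used here. Summary columns were not used.

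Mouse miRNAs above the mean plus 2 SD of their library's 8 negative controls in at least 5 libraries were kept, 116 of 566. The test was edgeR's robust quasi-likelihood fit with genotype as the only term (edgeR 4.0.16, R 4.3.3, TMM scaling) and a Benjamini-Hochberg threshold of 0.05, and it was tested on simulated data. Intervals of fold changes use the SE and the residual degrees of freedom of the samples. Alternatives used DESeq2 1.42.0 (1 miRNA had no adjusted p there), limma 3.58.1, other scalings, filters, background subtraction and leaving out libraries. Named miRNAs are the members, the 5 most like each by r, and up to 4 of each list by mean count. The members and lists were chosen with earlier results of these data known.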

Additional observations from a re-analysis of the deposited data

Results flagged for a closer look

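Each of 5 quantities (raw and normalised counts of both members and their ratio) was examined for a library far from the others in each genotype, 10 groups of values in all, of which chance flags about 1 in 20. Mutant 8 had 240.3 normalised counts of miR-26b, the lowest of the 5 mutant libraries and far below the other four, which had 295.2 to 312.1. Its raw count of 255 was not as far from the next, 275. Wild type 2 had a ratio of miR-26a to miR-26b of 0.610, the highest of the 5 wild type libraries, where the other four had 0.530 to 0.541.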

How the results depend on the processing

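The miR-26b log2 fold change was above 0 in all 23 alternatives run, and the difference in the log2 ratio was below 0 in all 12. As the raw ratios of the genotypes did not overlap, leaving out libraries could not change the sign of that difference. miR-26b stood at 0.85 under housekeeping mRNA scaling, 0.57 under positive control scaling and 0.55 with no filter, against 0.35 in the reported fit. miR-26a stood at 0.44 and 0.19 under the first 2, and could not be fitted with the filter in all 10 libraries. Leaving out 1 library gave -0.12 to 0.09 for miR-26a, 0.32 to 0.42 for miR-26b, -0.45 to -0.30 for the difference in the log2 ratio and 0.20 to 0.27 for its SD. The count of miRNAs called was 5 with the DESeq2 Wald test, 5 without mutant libraries 9 and 10 (added after the data were seen), where miR-26b was not called and stood at 0.31, and 0 to 1 when 1 library was left out, with 1 called without mutant 9 (miR-16) and 1 without mutant 10 (miR-29b). Counts of about 120 for miR-26a, near background, limit what its level and the ratio can show, and after background subtraction miR-26a stood at 0.13 and miR-26b at 0.46. No paired analysis was possible because the labels give nothing that pairs a mutant library with a wild type library.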
